A study of Saccharomyces cerevisiae with 27 samples.

Results

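The yeast cell wall genes described here are 37 genes for wall proteins and for the enzymes that make and remodel wall glucan and chitin, out of 5656 genes measured. They were chosen by name, as known components of the wall and of its synthesis, and each was found by its gene symbol in the annotation of the array. All 37 were present. They comprise 4 Pir proteins, 13 other mannoproteins of the wall or cell surface, 2 glucan synthase subunits, 10 glucan transglycosylases and glucanases, 4 genes of chitin synthesis, 2 surface proteases of the yapsin family, the mannosyltransferase gene KTR2 and DFG5. For each gene the brightest of its probe sets was used, and 33 of the 37 had a single one.

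RNA levels of 27 samples were read on Affymetrix arrays of 1 colour, all from the laboratory strain X2180-1A of the baker's yeast Saccharomyces cerevisiae. All cultures grew with aeration in minimal medium with 2% glucose. Controls remained at 28 °C, with samples at 0, 120 and 240 min, at an OD600 of 0.50, 0.88 and 1.5, while heat-stressed cultures were brought to 41 °C within 5 min and sampled after 10, 30, 60, 120, 240 and 360 min. Each of these 9 groups held 3 replicates, labelled as biological replicates, and the labels name no mutation or drug in any of them. The samples are whole cultures, so fewer cells with a transcript and less of it in each cell cannot be told apart.

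The yeast wall is a mesh of β-1,3-glucan, made at the plasma membrane by a synthase with Fks1 or Gsc2 as its catalytic subunit, to which β-1,6-glucan, a little chitin and an outer coat of mannoproteins are attached. Most of these proteins are linked through the remnant of a GPI anchor, whereas Pir proteins are bound directly to β-1,3-glucan. Transglycosylases and glucanases cut and rejoin the polymers as a cell grows, and the cell wall integrity pathway, a MAP kinase cascade ending in Slt2 and the factor Rlm1, is known to raise several wall genes when the wall is strained, heat included.

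The values are linear intensities made with MAS5, Affymetrix's signal algorithm, and signals are given below as deposited. A fold is a difference of means of log2(signal + 113.81) after quantile normalization, is written with its standard error in limma's fit over all 27 arrays, and was called where the Benjamini-Hochberg adjusted p lay under 0.05. Heat times of 10, 30 and 60 min were compared with the control at 0 min, 120 and 240 min with the control of the same time, and 360 min with the control at 240 min. These comparisons share control arrays. Because array medians differed by a ratio of 1.28, every call was also made on the values as deposited and on arrays scaled to equal medians, and a call is said below to hold under all 3 scalings only where direction and call were the same in each.

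Heat-stressed and control arrays differed in more than these genes. The mean background signal, from 19 probe sets for non-yeast transcripts, was 66.2 to 81.4 on the control arrays, 47.3 to 74.2 at 10 min of heat and 35.4 to 52.3 later, and replicate 3 at 10 min had the lowest value of its group. The ratio of 3' to 5' signal of SRB4, a control for RNA integrity and labelling, was 2.27 ± 0.24 (SD, n = 3) in the control at 0 min, 4.17 ± 0.22 at 30 min of heat and 5.10 ± 0.44 at 360 min. That of SPT15 was 2.26 ± 0.10, 2.79 ± 0.40 and 3.17 ± 1.19, and that of ACT1 0.980 ± 0.013, 1.11 ± 0.037 and 1.06 ± 0.024 in the same groups. Their part in the results was not tested beyond a fit with background as a term, of which the counts and the main values for single genes are given below. The labels give no mating type. Pheromone genes of both mating types gave signal on the control arrays, the α-specific MF(ALPHA)1 at 833 to 1145 and the a-specific MFA1 and MFA2 at 103 to 148 and 395 to 478. MF(ALPHA)2 lay between 95.8 and 154, STE6 between 119.9 and 138 and BAR1 between 39.6 and 54.3. On the heat arrays the medians of MF(ALPHA)1, MFA1 and MFA2 were 469, 987 and 774, and the pheromone receptor genes STE2 (47.4 to 85.8) and STE3 (29.6 to 51.9) were near background in the controls, so these markers did not settle the mating type.

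The wall genes did not move as a block. Within 10 min of the shift 6 of the 37 rose and 19 fell, beside 33.8% and 38.8% of all genes. At 30 min 14 rose and 16 fell, beside 40.7% and 40.2%, and at 60 min 20 rose and 11 fell, beside 31.8% and 37.4%. At 120 min 12 rose and 17 fell, beside 33.3% and 35.6%. The numbers were 15 and 7 at 240 min, beside 28.3% and 33.0%, and 17 and 6 at 360 min, beside 31.0% and 34.8%. In either direction limma called 25, 30, 31, 29, 22 and 23 members at these 6 times, beside 72.5%, 80.9%, 69.2%, 68.9%, 61.3% and 65.8% of all genes. Most genes of the transcriptome were called, so a call alone did not set the wall genes apart. At these 6 times the heat and control arrays of 24, 31, 29, 30, 25 and 27 members did not overlap. The shares of all genes without overlap were 73.2%, 82.4%, 75.4%, 68.8%, 70.5% and 74.3%. A lack of overlap, given below for single genes, was thus common on these arrays and did not set a wall gene apart either.

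Changes of at least 2-fold took a share of the members close to that of all genes at 10 min and a larger one at the later times, a difference that was not tested. At 10 min 6 members, or 16.2%, passed this limit beside 15.6% of all genes, and at 30 min 15 members, or 40.5%, beside 27.1%. At 60 min it was 10 members beside 9.26%, and at 120 min 7, or 18.9%, beside 8.08%. At 240 min 4 members, or 10.8%, passed beside 6.14% and at 360 min 7, or 18.9%, beside 6.67%. The 2-fold limit, like the groups of genes by their course over time below, was added after the data had been seen, and 19 of the 37 did not reach it at any heat time.

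The balance of rises and falls depended on how the arrays were scaled. With equal medians the members' rises and falls were 4 and 18 at 10 min, 10 and 16 at 30 min, 16 and 13 at 60 min, 9 and 23 at 120 min, 13 and 13 at 240 min and 13 and 15 at 360 min. Calls that held under all 3 scalings numbered 4 rises and 18 falls at 10 min, 10 and 16 at 30 min, 16 and 9 at 60 min, 9 and 13 at 120 min, 13 and 6 at 240 min, and 13 and 4 at 360 min. With background as a term rises and falls numbered 8 and 18 at 10 min, 17 and 13 at 30 min, 21 and 5 at 60 min, 13 and 6 at 120 min, 21 and 2 at 240 min and 20 and 1 at 360 min, so that the balance turned at 30 and 120 min. Shares of all genes in each direction were not set beside these counts. At 120 min the background term left 2304 of all genes called, beside 3896 in the main fit. The median log2 fold of all genes with that term was 0.0097 at 30 min and -0.036 at 120 min, beside 0.22 and 0.14 for members. The heat map of all 37 genes shows which genes carried the counts of the main fit.

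**Figure D1:**
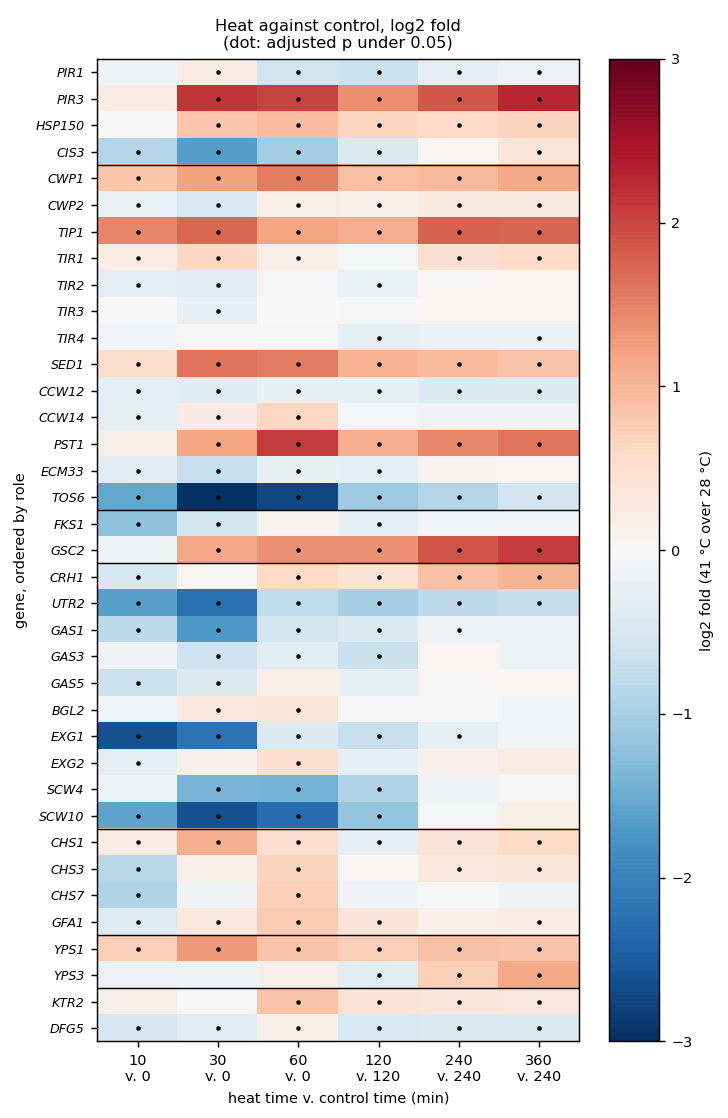
Colour gives the log2 fold of each of the 37 wall genes (rows, ordered by role, with lines between roles) at 41 °C over 28 °C at 6 heat times (columns, with the control time used), and a dot marks an adjusted p under 0.05. PIR3, TIP1, PST1 and GSC2 are red from 30 min on, while TOS6 is blue throughout, and SCW10, EXG1 and GAS1 are deep blue at 30 min and pale at 360 min.

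Among the wall genes 8 were higher at every time from 30 to 360 min, and they held under all 3 scalings and with background as a term. They are the Pir genes PIR3 and HSP150, the mannoprotein genes CWP1, TIP1, SED1 and PST1, the alternative glucan synthase gene GSC2 and the yapsin gene YPS1. Of these, CWP1, TIP1, SED1 and YPS1 were already higher at 10 min. Members lower at all 6 times were CCW12, TOS6 and UTR2, although some of these calls were lost under other settings, as given with each gene. How many of all genes kept either pattern was not computed, so these counts describe the list only.

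The Pir proteins went in different directions, although they are a family of related proteins. PIR3 gave signals of 368, 476 and 365 in the control at 0 min, of 530.5, 528 and 402 after 10 min of heat and of 2214, 2273 and 1753 after 30 min. The arrays at 30 min lay far above every control array, while those at 10 min overlapped with the controls. The log2 fold was 0.21 ± 0.11 at 10 min, which was not called (adjusted p = 0.0744), 2.15 ± 0.11 at 30 min (adjusted p = 3.88e-15) and 2.27 ± 0.11 at 360 min. PIR3 had 1.40 ± 0.11 at 120 min, between these highs. Its fold at 10 min was called without control replicate 2 (0.33) or without heat replicate 3 (0.31), and with background as a term (0.31).

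HSP150, which encodes a secreted and wall-bound Pir protein first known as a heat shock protein, followed more modestly. Its signals were 6565, 6132 and 6833 in the control at 0 min and 11429, 12159 and 11470.1 at 60 min of heat, with no overlap. HSP150 had a log2 fold of 0.012 ± 0.049 at 10 min and 0.93 ± 0.049 at 60 min (adjusted p = 8.7e-14), and it stayed between 0.60 and 0.93 from 30 to 360 min. The gene was thus well expressed before the shift and rose by less than 2-fold.

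CIS3, the gene next to HSP150 on chromosome X, did the reverse. It fell from 6129, 6234 and 7149.8 at 0 min to 3492, 4172 and 2687 at 10 min and 1824, 2011 and 1448 at 30 min. All heat arrays at 10 and 30 min lay below all control arrays. The log2 fold was -1.65 ± 0.11 at 30 min (adjusted p = 1.09e-12), -0.44 ± 0.11 at 120 min and 0.070 ± 0.11 at 240 min, which was not called. Background as a term put the fold of CIS3 at 120 min at 0.059 and at 240 min at 0.54. PIR1, the neighbour of PIR3 on chromosome XI, was lower from 60 min on, with signals of 5938, 5801 and 5949 in the control at 120 min and 3952, 3519 and 3251 in heat at 120 min. Its log2 fold was -0.65 ± 0.060 there, and at 360 min -0.19 ± 0.060, a call lost when replicate 2 of heat at 360 min was left out (-0.13) and with background as a term (-0.046). At 30 min the fold of PIR1 was 0.22 after quantile normalization and -0.0040 as deposited, so no direction could be given.

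**Figure D2:**
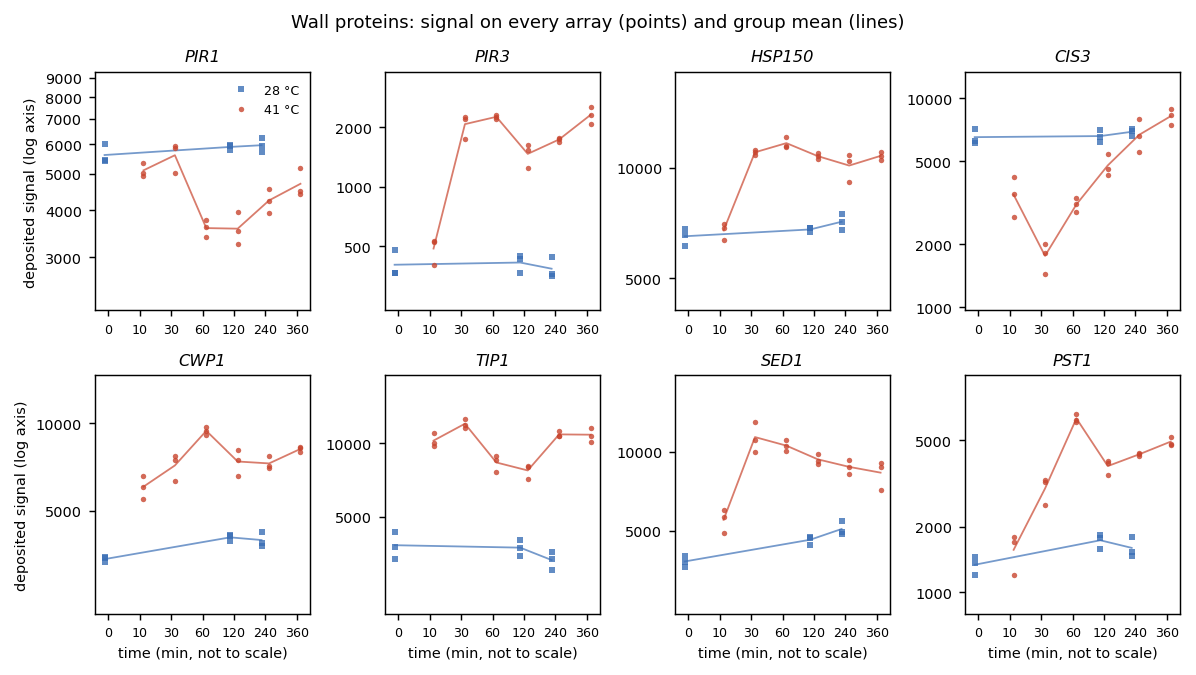
Deposited signal (log axis) of 8 wall protein genes against time (minutes, not to scale), with a point for each array, blue squares for 28 °C, red circles for 41 °C and lines through group means of 3 arrays. PIR3 and PST1 leave the control range by 30 min and stay above it, CIS3 dips to a mean of 1761 at 30 min and returns, and PIR1 falls only from 60 min.

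Of the 13 other mannoproteins, 4 rose and 6 fell at 10 min, beside 33.8% and 38.8% of all genes, and 6 rose and 6 fell at 30 min, beside 40.7% and 40.2%. At 240 min 6 rose and 2 fell, beside 28.3% and 33.0%. The early counts are near these shares. TIP1, a mannoprotein known from cold and heat shock, was high from the first sample on. Its signals were 3366, 3776 and 4360.3 in the control at 0 min and already 9972, 10993 and 9767 at 10 min of heat. The log2 fold of TIP1 was 1.48 ± 0.076 at 10 min (adjusted p = 2.47e-14), 1.73 ± 0.076 at 30 min, 1.08 ± 0.076 at 120 min and 1.78 ± 0.076 at 240 min.

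SED1, a major wall protein of stationary and stressed cells, had signals of 3632, 3818 and 4008 at 0 min, 5656, 5969.9 and 4881 at 10 min and 11108, 12986 and 9967 at 30 min of heat. Each of these groups lay wholly above the one before. SED1 had a log2 fold of 0.52 ± 0.081 at 10 min and 1.62 ± 0.081 at 30 min (adjusted p = 5.13e-15), and 0.96 ± 0.081 against the control at 240 min. In the control cultures themselves SED1 went up to 4838, 5443 and 4950.3 at 240 min, a log2 difference of 0.35 ± 0.081 that was not called (adjusted p = 0.109) but was with background as a term (0.35).

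CWP1, a GPI protein found at birth scars, rose from 3449, 3315 and 3443 to 6044, 6597 and 5490.0 at 10 min and 9094, 9405 and 9733 at 60 min. No heat array of CWP1 overlapped with the controls at 0 min, and the log2 fold at 60 min was 1.53 ± 0.067 (adjusted p = 2.56e-15). CWP2, its neighbour on chromosome XI and a major mannoprotein, moved little, with 11032, 10303 and 10761 at 0 min and 7294, 7638 and 6376 at 30 min, a log2 fold of -0.46 ± 0.045. Its small rises from 60 min on, of 0.16 to 0.27, turned to between -0.062 and -0.0072 at 60, 120 and 360 min with equal medians.

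PST1, a GPI protein often used as a reporter of cell wall stress, had signals of 1198, 1459 and 1358 at 0 min, 3217, 3276 and 2509 at 30 min and 6073, 6209 and 6630.3 at 60 min of heat. Its rise was later than that of TIP1, with log2 folds of 0.18 ± 0.083 at 10 min, not called, 1.18 ± 0.083 at 30 min and 2.10 ± 0.083 at 60 min (adjusted p = 4.27e-16). Without control replicate 2 or heat replicate 3 the fold of PST1 at 10 min was called (0.24 and 0.29), as it was with background as a term (0.28). ECM33, the paralog of PST1, took the opposite course, with 7645, 7957 and 8670.1 at 0 min and 4609, 5143 and 3579 at 30 min and no overlap. The log2 fold of ECM33 was -0.68 ± 0.068 at 30 min and 0.089 ± 0.068 at 240 min, the last not called. Another probe set of ECM33 lay lower, at -1.14 at 30 min and -0.28 at 240 min relative to the control at 0 min as deposited. The one used gave -0.86 and -0.021 there.

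TOS6, which encodes a GPI-type surface protein without an established role, showed the deepest fall among the 37 at 30 min. Its signals were 4910.0, 4896 and 5525 at 0 min, 1639.6, 1889.7 and 1122 at 10 min and 510.4, 558 and 427 at 30 min. All arrays at 30 min lay below all arrays at 10 min, which lay below the controls. TOS6 had a log2 fold of -2.97 ± 0.24 at 30 min (adjusted p = 6.27e-11), -1.09 ± 0.24 at 120 min and -0.56 ± 0.24 at 360 min. TOS6 was not called at 120, 240 or 360 min once background was a term (-0.84, -0.65 and -0.29), and at 360 min the call was also lost when any of 6 arrays was left out.

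The remaining mannoproteins changed by less than 2-fold. TIR1, of the cold-shock and anaerobic Tir family, was higher at 30 min, with 2898, 3275 and 3255 before and 4269.9, 4539 and 3722 after, a log2 fold of 0.62 ± 0.070, and was higher again at 240 min (0.49 ± 0.070). Folds of TIR2, TIR3 and TIR4, other members of that family, lay between -0.35 and 0.065 in the 6 comparisons. At 240 and 360 min with equal medians TIR2 was -0.19 and -0.24 and TIR3 -0.23 and -0.24, where the main fit called neither. CCW14, an inner-layer GPI protein, fell by 0.28 at 10 min and rose by 0.62 ± 0.081 at 60 min. CCW12, a GPI protein of growing sites, had folds of -0.41 to -0.23, but it ranked 1 or 2 among all genes on control arrays and 2 to 4 on heat arrays, where quantile normalization assigns a gene the value of its rank. Its falls held under all 3 scalings at 30 and 120 min, and the latter was lost without control replicate 2 of that time (-0.14).

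The catalytic subunits of glucan synthase parted from each other. GSC2, the subunit known from starved, sporulating and stressed cells, rose from 846, 1022 and 979 at 0 min to 2261, 2385 and 1811 at 30 min and 3840.3, 4845 and 4062 at 360 min. The arrays at 10 min (887, 971 and 703) overlapped with the controls, those from 30 min did not. The log2 fold of GSC2 was -0.13 ± 0.093 at 10 min, not called, 1.17 ± 0.093 at 30 min (adjusted p = 3.52e-11) and 2.09 ± 0.093 at 360 min, the highest of its series.

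FKS1, the subunit of growing cells, fell from 6609, 6259.8 and 7021 at 0 min to 2622, 3608 and 2105 at 10 min and 3711, 4448 and 3072 at 30 min. Both heat groups lay below all controls. Its log2 fold was -1.20 ± 0.087 at 10 min (adjusted p = 1.32e-11), -0.60 ± 0.087 at 30 min and 0.11 ± 0.087 at 60 min, the last not called. Whether FKS1 then stayed at its control level depended on the probe set. The brightest gave -0.083 ± 0.087 at 240 min, not called, whereas the mean of its 8 probe sets gave -0.93 at 240 min, -0.84 at 360 min and -0.29 at 60 min, all called. Relative to the control at 0 min, all 8 lay lower at 240 min, by between -1.46 and -0.091 on the log2 scale. The brightest one turned to 0.31 at 240 min with background as a term. For GSC2 7 probe sets ran from -0.099 to 1.78 at 240 min and from 0.20 to 2.05 at 360 min, and their mean gave 0.86 and 1.18, both called. These means give every probe set equal weight, dim ones included. The dimmest probe set of FKS1 had 121 in the control at 0 min and that of GSC2 22.5. Relative to that control as deposited, the brightest probe sets of FKS1 gave -0.091, -0.54 and -0.44 at 240 min. Those of GSC2 gave 1.78, 1.61 and 1.51.

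**Figure D3:**
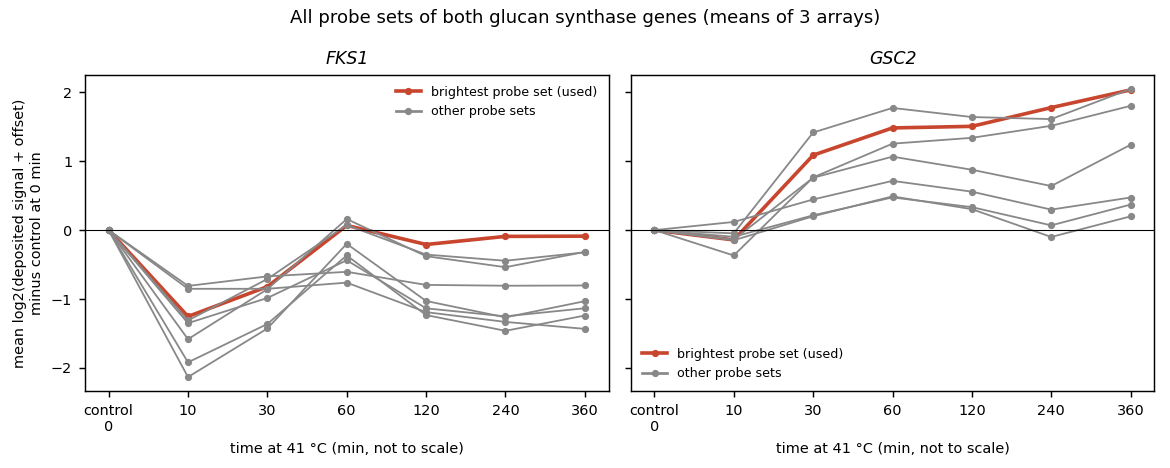
Mean log2(deposited signal + 113.81) minus its mean in the control at 0 min for each of the 8 probe sets of FKS1 (left) and 7 of GSC2 (right) against time at 41 °C (minutes, not to scale), each point a mean of 3 arrays, with the brightest probe set in red. All FKS1 probe sets are below 0 at 10 min and again from 120 min, by very different amounts, and all of GSC2 are above 0 at 30, 60, 120 and 360 min.

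The enzymes that remodel glucan mostly fell first. Of these 10 genes 7 fell and 0 rose at 10 min, beside 38.8% and 33.8% of all genes, and 7 fell and 1 rose at 30 min, beside 40.2% and 40.7%. At 240 min 3 were lower and 1 was higher, beside 33.0% and 28.3%. EXG1, the major exo-β-1,3-glucanase, fell from 5515, 5342 and 6369 at 0 min to 826, 873 and 566 at 10 min. At 60 min it was back at 3718, 4416 and 4377, still below all controls. The log2 fold of EXG1 was -2.62 ± 0.10 at 10 min (adjusted p = 1e-16), -2.21 ± 0.10 at 30 min, -0.40 ± 0.10 at 60 min and -0.27 ± 0.10 at 240 min. The late values depended on background, which as a term turned them to 0.18 at 60 min and 0.30 at 240 min, and at 240 min EXG1 was not called without control replicate 2 (-0.22) or heat replicate 2 (-0.22) or 3 (-0.25).

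SCW10 and SCW4 encode related wall proteins of the glucanase type. SCW10 went from 1879, 2096 and 1837 to 620.2, 618 and 420.3 at 10 min and 217, 212 and 179 at 30 min, and it reached 1827, 1986 and 1697 at 240 min. Arrays at 10, 30 and 60 min lay below all controls, and those at 240 min overlapped with the control of that time. SCW10 had a log2 fold of -2.61 ± 0.16 at 30 min (adjusted p = 2.49e-13) and -0.062 ± 0.16 at 240 min, not called. A dim additional probe set for SCW10 did not follow, at 0.44 at 30 min relative to the control at 0 min as deposited, where the one used gave -2.70.

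SCW4 fell at 30 min but was not called at 10 min. Its signals were 5619, 5821 and 5824 at 0 min, 5182, 5774 and 4839 at 10 min and 1859, 1937 and 1619 at 30 min. The groups at 0 and 10 min overlapped, and the arrays at 30 min lay far below both. Its log2 fold was -0.10 ± 0.093 at 10 min, not called, -1.39 ± 0.093 at 30 min (adjusted p = 1.48e-12), -0.89 ± 0.093 at 120 min and -0.14 ± 0.093 at 240 min. The last was not called, but it was as deposited (-0.32) and with equal medians (-0.42).

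GAS1, the main β-1,3-glucanosyltransferase that lengthens glucan chains, dropped from 8269, 8419 and 8508 to 2122, 2753 and 1773 at 30 min. The log2 fold was -0.79 ± 0.078 at 10 min, -1.71 ± 0.078 at 30 min (adjusted p = 9.47e-16) and -0.59 ± 0.078 at 60 min, the last not called with background as a term (-0.25). At 240 min it was -0.18 ± 0.078, a call that was lost when any of the 6 arrays compared was left out, and 0.15 with background as a term. Its relatives moved less, with GAS5 at -0.65 ± 0.10 at 10 min and GAS3 at -0.61 ± 0.11 at 30 min, and neither was called at 240 min, though both were higher there with background as a term (0.61 and 0.59). A term for background put GAS5 at 0.047 at 30 min and GAS3 at 0.21 at 60 min.

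CRH1 and UTR2 encode transglycosylases that join chitin to glucan, and they ended on opposite sides of their controls. CRH1 gave 2128, 2489.5 and 2315 at 0 min, 1603, 1765 and 1282 at 10 min and 3355, 3640.3 and 3825 at 60 min. It was lower at 10 min by all 3 arrays and higher at 60 min by all 3. The log2 fold was -0.49 ± 0.081 at 10 min, 0.59 ± 0.081 at 60 min (adjusted p = 8.93e-07) and 1.01 ± 0.081 at 360 min. UTR2 went from 3119.7, 3289.5 and 3785 at 0 min to 510.1, 661 and 543 at 30 min, and it was still at 1766, 1836 and 1857 at 360 min. No heat array of UTR2 reached the control range, with log2 folds of -2.24 ± 0.10 at 30 min (adjusted p = 1.11e-15) and -0.72 ± 0.10 at 360 min. UTR2 was not called at 60, 240 or 360 min once background was a term (-0.36, -0.39 and -0.26).

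BGL2, an abundant endoglucanase with transferase activity, was among the few enzymes that rose, by 0.32 ± 0.082 at 30 min and 0.37 ± 0.082 at 60 min. The first call was lost as deposited (0.11) and with equal medians (0.10), and the second with equal medians (0.11). EXG2, a minor exoglucanase, fell by 0.27 at 10 min and rose by 0.50 ± 0.11 at 60 min, the first call being lost when any control array at 0 min or replicate 3 at 10 min was left out and with background as a term (-0.18). Neither gene was called at 120, 240 or 360 min, but other settings called both. BGL2 was lower at all 3 times with equal medians (-0.24, -0.27 and -0.38) and at 360 min as deposited (-0.23). EXG2 was lower at 120 min with equal medians (-0.26), higher at 360 min as deposited (0.31), and higher at 30, 240 and 360 min with background as a term (0.45, 0.48 and 0.63).

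**Figure D4:**
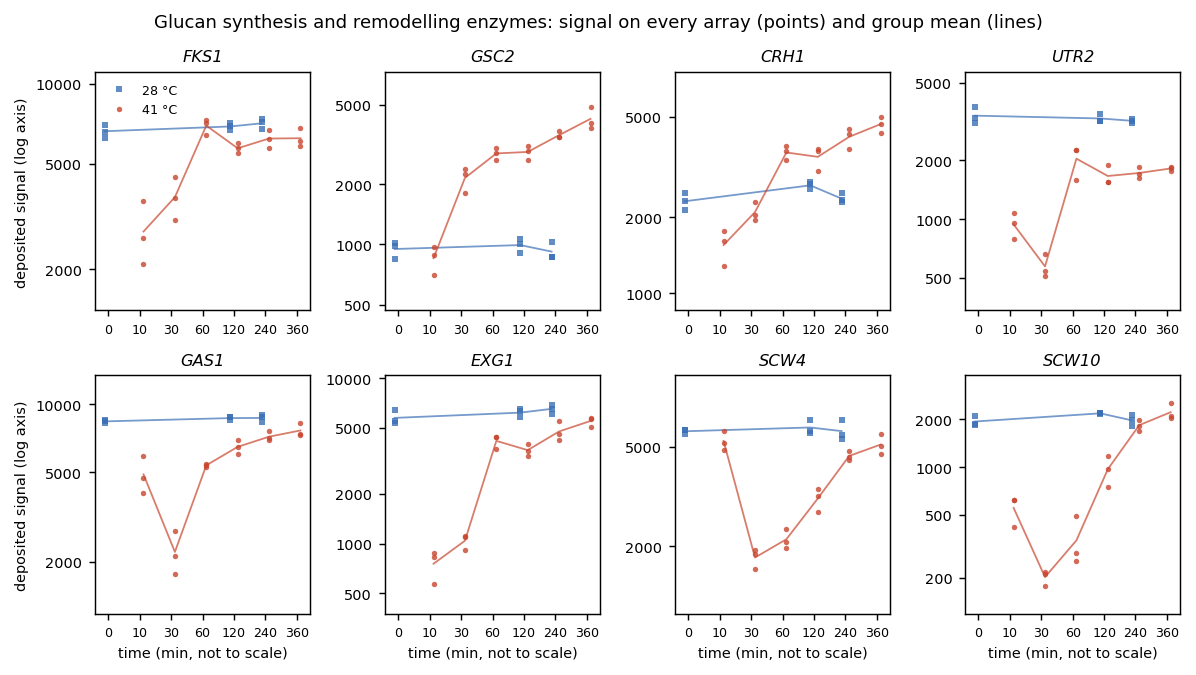
Deposited signal (log axis) of 8 genes for glucan synthesis and remodelling against time (minutes, not to scale), with a point for each array, blue squares for 28 °C, red circles for 41 °C and lines through group means of 3 arrays. GSC2 and CRH1 end above their controls, UTR2 stays below, and FKS1, GAS1, EXG1, SCW4 and SCW10 dip and climb back, SCW10 from a mean of 203 at 30 min to 2218 at 360 min.

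The 4 chitin genes among the members were all higher at 60 min, beside 31.8% of all genes. Their log2 folds were 0.51 to 0.77, and these calls held under all 3 scalings, while that of CHS1 was lost with background as a term (0.29). Of 10 other chitin genes, in the wider set described below, 5 were higher and 4 lower at 60 min. Chitin genes beyond these members thus did not rise together. Before 60 min the 4 members differed. CHS3, the synthase for most wall chitin, was at 1386, 1607 and 1328 at 0 min, 755, 825 and 633 at 10 min and 1989, 2924 and 2927 at 60 min. It was thus below its controls first and above them later, with log2 folds of -0.84 ± 0.12 and 0.68 ± 0.12. CHS7, needed for export of Chs3 from the endoplasmic reticulum, had -0.90 ± 0.13 at 10 min and 0.72 ± 0.13 at 60 min. GFA1, the first enzyme of the pathway to the chitin precursor, had -0.39 ± 0.084 and 0.77 ± 0.084 at these times.

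CHS1, the synthase that repairs chitin at cell separation, alone peaked at 30 min among these 4. Its signals were 702, 823 and 688 at 0 min and 1609, 1487 and 1558 at 30 min, without overlap. CHS1 had a log2 fold of 1.06 ± 0.10 at 30 min (adjusted p = 9.8e-10). At 120 min it was -0.24 ± 0.10, a weak call lost when any control array or heat replicate 2 or 3 of that time was left out, and at 240 min 0.39 ± 0.10, which background as a term reduced to an uncalled 0.18.

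The neighbouring yapsin genes on chromosome XII, for GPI-anchored proteases of the surface, differed in time. YPS1 rose from 1231, 1445 and 1362 to 2339.9, 2866 and 2028 at 10 min and 3366, 3780.2 and 2655 at 30 min, with no overlap with the controls. Its log2 fold was 0.73 ± 0.080 at 10 min, 1.29 ± 0.080 at 30 min (adjusted p = 3.31e-13) and 0.87 ± 0.080 at 360 min. YPS3 had 960.4, 1035 and 864 in the control at 240 min and 1628, 1742 and 1586 and 1841, 2652 and 2278 in heat at 240 and 360 min. YPS3 was not called at 10, 30 or 60 min, except at 10 min without control replicate 3 (-0.33) and at 60 min as deposited (0.35) and with background as a term (0.63). It rose by 0.71 ± 0.14 at 240 min and 1.13 ± 0.14 at 360 min (adjusted p = 3.32e-07).

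KTR2, a mannosyltransferase of N-glycan chains, was not called at 10 and 30 min and was higher from 60 min, with 332, 341 and 346 at 0 min and 635, 884 and 872 at 60 min and a log2 fold of 0.86 ± 0.089. With background as a term it was also higher at 10 min (0.26) and 30 min (0.32), and at 10 min without heat replicate 3 (0.24). DFG5, which with DCW1 is thought to attach GPI proteins to the wall, was lower, at -0.51 ± 0.076 at 10 min and -0.41 ± 0.076 at 240 min. Its small rise at 60 min, 0.18 ± 0.076, was lost when any array of either group except heat replicate 1 was left out.

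The control cultures went from an OD600 of 0.50 to 1.5 over 240 min at 28 °C. No member was called at 120 or 240 min against 0 min in limma, and 0 and 4 of all 5656 genes were, or 0.0% and 0.0707%. At an unadjusted p under 0.05 there were 3 and 4 members, beside 97 and 220 of all genes.

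Late heat, the mean of 240 and 360 min, was compared with early heat, the mean of 10 and 30 min, which uses no control array. Here 27 members were higher and 5 lower late, beside 38.9% and 42.8% of all genes, or 32 members beside 81.7% in either direction. Of these, 9 members were at least 2-fold higher and 0 at least 2-fold lower, beside 7.74% and 5.83% of all genes. Under all 3 scalings 21 held as higher and 2, PIR1 and BGL2, as lower. With equal medians the split was 21 and 9, and CWP1, SED1, TIR3, CCW12, TIR1 and CCW14 were then between -0.21 and -0.0062. Shares of all genes in each direction were not set beside these counts under other scalings. The median log2 fold of all genes was -0.025 in the main fit, 0.15 as deposited and -0.031 with equal medians. That of the members was 0.34, 0.45 and 0.25.

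The largest differences were those of the remodelling genes EXG1 and SCW10, which had fallen early. An early fall enters this difference directly. EXG1 was 2.36 ± 0.071 higher on the log2 scale late (adjusted p = 1.2e-18) and SCW10 2.11 ± 0.11 (adjusted p = 2.45e-14). CRH1, GAS1 and UTR2 had 1.16, 1.10 and 1.06, CRH1 ending above its control. Of the proteins CIS3 had 1.52 ± 0.077 and TOS6 1.45 ± 0.17. GSC2 (1.35 ± 0.066) and PST1 (1.01 ± 0.059) were also higher late, but both already exceeded their controls at 30 min. FKS1 had 0.88 ± 0.061 by its brightest probe set and 0.21 by the mean of 8, dim ones included.

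**Figure D5:**
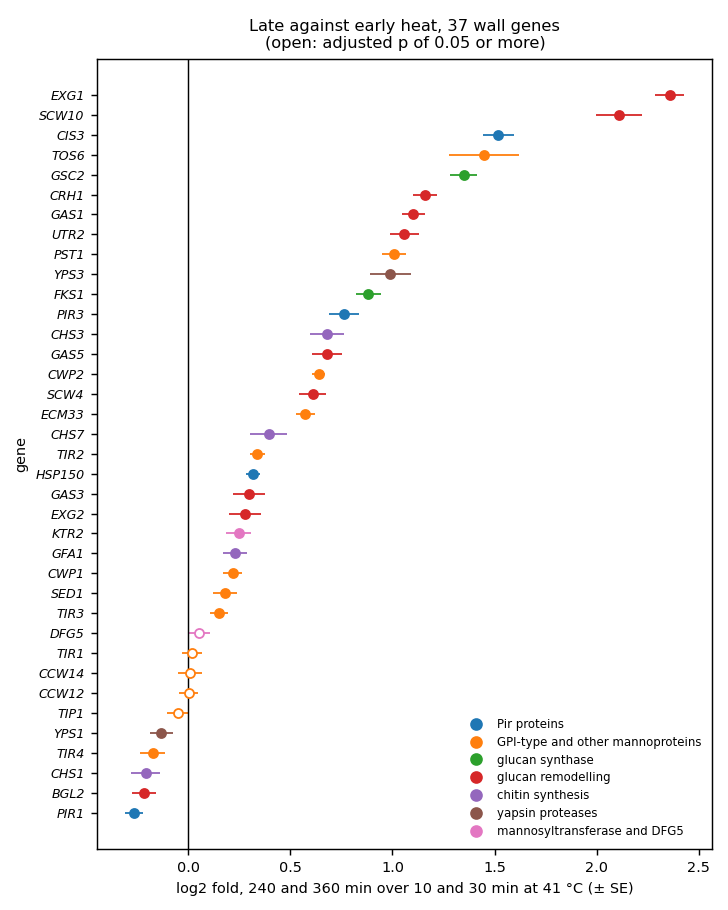
Log2 fold of late heat (mean of 240 and 360 min) over early heat (mean of 10 and 30 min) with its standard error for each of the 37 wall genes, coloured by role, with open points for an adjusted p of 0.05 or more. EXG1 and SCW10 lie at the top at 2.36 and 2.11, and PIR1 and BGL2 are at the bottom at -0.27 and -0.22.

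Of the 16 members that were lower at 30 min, all of them under each scaling, 9 were no longer called at 240 min against the control of that time, namely CIS3, TIR2, TIR3, ECM33, FKS1, GAS3, GAS5, SCW4 and SCW10. CCW12, TOS6, UTR2, GAS1, EXG1 and DFG5 were still lower, and CWP2 was higher. The call of CWP2 at 240 min was lost with equal medians (0.057) and that of CCW12 as deposited (-0.063), while TIR2, TIR3 and SCW4 were then lower with equal medians (-0.19, -0.23 and -0.42). With background as a term UTR2 and TOS6 were no longer called at 240 min, GAS1 turned to an uncalled 0.15 and EXG1 to a called 0.30, and CIS3, ECM33, FKS1, GAS3 and GAS5 were higher there, at 0.29 to 0.61. A missed call does not show a return to the control level, and the late values of FKS1 and ECM33 depended on the probe set. How many of all genes lower at 30 min were no longer called at 240 min was not counted. Of all genes 80.9% were called at 30 min and 61.3% at 240 min, and 40.2% and 33.0% were lower, so these counts describe the list only. Over the heat times 15 members had their highest mean at 60 min, beside 11.5% of all genes, and 17 had their lowest at 10 min, beside 23.5%. No member peaked at 10 min, beside 20.2% of all genes. The median range over the heat times was 0.92 for members and 0.68 for all genes on the log2 scale. These shares and ranges describe the list, were not tested and were not matched for brightness.

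The heat effect itself changed between 120 and 240 min for several members. The effect at 240 min minus that at 120 min, each against the control of its time, was called for 15 members, all higher at 240 min. Of all genes 5.45% were higher and 5.18% lower, or 10.6% in either direction. Only 6 of the 15 members held under all 3 scalings, namely TIP1, TIR1, SCW4, SCW10, CHS1 and YPS3. The matching count for all genes was not made. SCW10 had the largest difference, 1.11 ± 0.23 (adjusted p = 0.00298), followed by YPS3 at 1.06 ± 0.20 (adjusted p = 0.00168). SCW10 had signals of 1183, 971 and 753 in heat and 2202, 2149 and 2195 in the control at 120 min, and of 1827, 1986 and 1697 and 1809, 2131 and 1975 at 240 min. Heat arrays thus lay below all controls at 120 min and overlapped with them at 240 min.

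Neighbours on the chromosome were described side by side, since several of these genes lie in pairs. At 30 min PIR1 and PIR3 had 0.22 and 2.15, HSP150 and CIS3 0.83 and -1.65, and CWP1 and CWP2 1.21 and -0.46. TIR2 and TIR4 had -0.35 and -0.014, and YPS1 and YPS3 1.29 and -0.13. In 4 of these 5 pairs the partners differed by more than 1 log2 unit, and in HSP150 and CIS3, as in CWP1 and CWP2, one was called higher and the other lower. The same count was not made for all neighbouring genes, and 27.1% of all genes changed at least 2-fold at 30 min. Related genes such as the Pir and Tir families share sequence, and how far their probe sets share signal was not tested.

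A wider set of 79 other wall genes, from glucan assembly to protein mannosylation, was examined from lists chosen by role. At 30 min 24 rose and 42 fell, beside 40.7% and 40.2% of all genes, and at 240 min 24 and 30, beside 28.3% and 33.0%. Late against early 49 were higher and 17 lower, beside 38.9% and 42.8%. The lists parted there. Of 16 remodelling genes 14 were higher and 1 lower, of 13 glucan assembly genes 8 and 2, and of 10 chitin genes 5 and 3. Of 21 mannoprotein genes, however, 5 were higher and 10 lower. Counts of these other wall genes come from the main fit only and were not repeated under other scalings. Of 19 mannosylation genes, for the Golgi and ER enzymes that build the mannan of these proteins, 18 fell at 10 min, beside 38.8% of all genes, and 17 were higher late than early, beside 38.9%. SPI1, a GPI protein of stressed and stationary cells, had the largest rise at 30 min, from 338, 431 and 422 to 7828, 9067 and 7757, a log2 fold of 4.01 ± 0.12. YPS6, another yapsin, and FIT2, a mannoprotein of siderophore uptake, rose by 3.17 and 3.12. The largest falls at 30 min were those of the daughter-cell glucanase gene DSE2, from 4709, 5101 and 5295 to 503, 404 and 382 (log2 fold -3.11 ± 0.18), of the chitinase gene CTS1 (-2.46) and of SUN4 (-2.43), all of which act when mother and daughter cells separate. At 240 min the stress glycoprotein gene YGP1 (2.91), SPI1 (2.72) and FIT2 (2.48) rose most, and SVS1 (-1.07), DSE2 (-0.78) and the yapsin gene MKC7 (-0.77) fell most.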

How the data were processed

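The authors deposited a linear intensity for every probe set of each array, computed with MAS5 per the submitters' processing notes. Neither its version nor its scaling target was given. No value lies below 20, the value of 3.69% to 5.30% of probe sets on an array. Of 9335 probe sets, 6504 name 1 gene, which gave 5656 genes (315 with several probe sets). Array medians of 441.74 to 566.35 exceeded a ratio limit of 1.2, so arrays were quantile normalized. An offset of 113.81, the 10th percentile, was added before log2, so folds of dim genes are understated. In R 4.3.3, limma 3.58.1 was fitted with 9 group means over 27 arrays, using eBayes with a variance trend and the Benjamini-Hochberg adjustment over all genes. The median SD within a group was 0.065 to 0.118 on the log2 scale. Members and gene lists were chosen with earlier results of these data known. All members are named, and of the other wall genes the 3 largest rises and falls at 30 and 240 min whose higher mean exceeded the median level. The fit was tested on simulated data. Alternatives changed scaling, offset, filter, probe sets, trend, arrays fitted, replicate and culture blocks, background and each array in turn. Chromosomes and neighbouring genes come from RefSeq's gene table (assembly R64), and coordinates and sequences were not used here. The series' design names 3 control and 3 stressed cultures, each sampled over time, but whether a replicate number follows 1 culture is not stated, so no pairing was used in the main fit. With culture as a random block its estimated correlation was 0.086.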

Additional observations from a re-analysis of the deposited data

Results flagged for a closer look

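The heat effect differed between 120 and 240 min, each against the control of its time, for 15 wall genes, and each of these was flagged because a test of that difference in limma passed an adjusted p of 0.05. All were higher at 240 min on the log2 scale, while of all genes 5.45% were higher and 5.18% lower.

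Those that held under all 3 scalings of the arrays were SCW10 (1.11), YPS3 (1.06), SCW4 (0.75), TIP1 (0.70), CHS1 (0.63) and TIR1 (0.54). TIR1 and YPS3 had folds of -0.060 and -0.35 at 120 min and of 0.49 and 0.71 at 240 min, and CHS1 had -0.24 and 0.39. The falls of YPS3 and CHS1 at 120 min lost their call when single arrays were left out, for YPS3 control replicate 2 or 3 or heat replicate 3. The other 9 were not called on the values as deposited. These were GAS3 (0.71), CIS3 (0.51), GSC2 (0.51), CRH1 (0.50), PIR3 (0.47), PST1 (0.37), PIR1 (0.36), ECM33 (0.36) and TIR2 (0.23). GAS3 and CRH1 were called with equal medians and the remaining 7 were not. By the mean of its 7 probe sets, dim ones included, GSC2 had 0.092, which was not called.

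Leaving out 1 of the 12 arrays compared ended the call of TIR2 in 10 cases (0.21 to 0.25), of PST1 in 9 (0.31 to 0.38), of CIS3 in 8 (0.41 to 0.52), of PIR3 in 8 (0.36 to 0.51) and of ECM33 in 1, without replicate 3 of heat at 120 min (0.31).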

How the results depend on the processing

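Values for all 37 genes in all 15 comparisons, 555 results, were recomputed under each alternative. With equal array medians 32 changed direction while called in at least one of the fits, 40 lost their call and 40 gained one. With background as a term the numbers were 24, 53 and 30, as deposited 1, 42 and 15, and with the mean of all probe sets 1, 6 and 6. Background moved with heat over the arrays, so the term and heat cannot be fully told apart. Of 3774 values with 1 array left out, none changed direction, 135 lost and 23 gained their call. The offset, a filter at 200, the variance trend, the groups alone and the blocks moved 9 calls or fewer in either direction.

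Deviations of heat samples with the same replicate number correlated above 0.1 in 23 of 45 pairs (median r 0.125), beside 24 of 90 pairs with other numbers (median r -0.042), and those of controls in 4 of 9 beside 7 of 18. Not every pair passed that limit, and whether the number follows 1 culture was not settled. The main fit used no pairing and so took the arrays as independent, which repeated samples of 1 culture would not be. With culture as a random block 3 calls were gained and 0 lost. With the replicate block 5 calls were gained and none lost, and the difference of heat effects had 713 genes called beside 601.

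Values that changed direction with equal medians were, at 30 min PIR1 -0.018, at 60 min CWP2 -0.036, at 120 min against the control at 0 min CWP2 -0.061 and CCW14 -0.23, at 240 min against the control at 0 min TIR2 -0.30, TIR3 -0.32 and CCW14 -0.26, at 360 min against the control at 0 min CWP2 -0.025, TIR2 -0.35, TIR3 -0.33, ECM33 -0.25, EXG1 -0.32 and GFA1 -0.053, at 120 min CWP2 -0.062, at 240 min TIR2 -0.19 and TIR3 -0.23, at 360 min CWP2 -0.0072, TIR2 -0.24, TIR3 -0.24 and GFA1 -0.020, in late against early heat CWP1 -0.0062, TIR1 -0.18, TIR3 -0.060, SED1 -0.13, CCW12 -0.12 and CCW14 -0.21, at 360 min against 10 min of heat TIP1 -0.20, TIR1 -0.049, TIR2 -0.016, TIR3 -0.27, CCW14 -0.061 and SCW4 -0.32. For background as a term they were, at 30 min GAS5 0.047 and KTR2 0.32, at 60 min GAS3 0.21 and EXG1 0.18, at 120 min against the control at 0 min CIS3 0.051, FKS1 0.21 and GAS5 0.49, at 240 min against the control at 0 min FKS1 0.38, GAS1 0.15 and EXG1 0.41, at 360 min against the control at 0 min FKS1 0.46 and GAS3 0.45, at 120 min CIS3 0.059, FKS1 0.14, GAS5 0.37 and YPS3 0.11, at 240 min FKS1 0.31, GAS1 0.15 and EXG1 0.30, at 360 min FKS1 0.39, GAS3 0.49 and EXG1 0.58, in late against early heat YPS1 0.012, at 360 min against 10 min of heat GAS3 0.46. As deposited PIR1 was -0.0040 at 30 min, and with the mean of probe sets FKS1 was -0.29 at 60 min.

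Counts moved as follows. With background as a term 2509 and 2120 genes were called at 120 and 360 min against the control at 0 min (main counts 3895 and 3787), 2304 at 120 min and 2084 at 360 min (3896 and 3720), 19 members at 120 min (29), 9 members at 2-fold at 240 min (4), and 1 member and 14 genes in the control at 240 min (0 and 4). That control had 7 genes as deposited, with 3 times the offset and with the culture as a random block, and 1 to 3 with an array left out. The control at 120 min had 1 gene with 3 times the offset and 0 to 4 with an array left out. With equal medians 4 members passed 2-fold at 360 min (7). For the difference of heat effects 6 members were called as deposited and 8 with equal medians (15), and at 2-fold 1 as deposited, 0 with 3 times the offset and 1 with the mean of probe sets (2). With an array left out, genes called there numbered 386 to 739 and members at 2-fold 0 to 2. As deposited the median of all genes shifted by 0.14 at 120 min against the control at 0 min and 0.15 in late against early heat, and 62.4% of called genes were higher late, beside 47.7% in the main fit. At 60, 120 and 360 min 58.4%, 62.1% and 59.0% were higher as deposited, beside 46.0%, 48.4% and 47.1%, and in the difference 28.8% beside 51.2%. The cause of these shifts was not tested. The 3 arrays of each group limit small folds.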
